A study of Mus musculus with 19 samples.

Results

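The clustered histone genes of mouse are the Hist1 to Hist4 genes, taken here as every row of the expression table whose gene name starts with Hist1h, Hist2h, Hist3h or Hist4h, leaving out names that contain -ps. They are 69 of 52110 named rows, of which 6 encode H1, 20 H2A, 18 H2B, 12 H3 and 13 H4. Liver RNA of wild-type mice was sequenced in 4 groups that crossed diet with a procedure. The NC sham group (n = 5) received normal chow and a sham procedure, and the NC RIC group (n = 5) received chow and remote limb ischemic conditioning, in which blood flow to a limb is interrupted and restored. The CDAHFD sham group (n = 5) and the CDAHFD RIC group (n = 4) received CDAHFD, a high-fat diet that lacks choline and whose protein is given as L-amino acids, used to give a fatty, inflamed liver (nonalcoholic steatohepatitis), with sham or conditioning. The labels give neither age, sex, time on diet and number of conditioning sessions, nor whether each sample was a separate animal, so p-values measure only the spread between these samples, which may be technical. In whole liver RNA, fewer cells of a type and less RNA per cell cannot be told apart.

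Core histones (H2A, H2B, H3 and H4) form the protein spool of the nucleosome, and the linker histone H1 sits on the DNA that enters and leaves it. Most genes of these clusters are transcribed during DNA replication, and their mRNAs lack introns and usually end in a conserved stem-loop in place of a poly(A) tail. Some members are also known to be made as polyadenylated RNA in cells that do not divide. In adult liver few hepatocytes divide, and division resumes after injury.

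The stem-loop is what sets these mRNAs apart, so it is shown for 1 or 2 of the members with the highest levels of each type in which it was found. The GENCODE M21 annotation of GRCm38 (mm10), from whose transcripts the sequences are taken, classed 67 members as protein coding and 2 (Hist1h2aj and Hist1h2al) as pseudogenes. A stem-loop of 16 bases was found in the transcript models of 46 of the 67. It started 24 to 61 bases past the coding part, a count that includes the stop codon. Capitals mark the stem-loop and lower case the flanking bases, written 5′ to 3′ as DNA:
Hist1h1c (chromosome 13): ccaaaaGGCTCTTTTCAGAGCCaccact
Hist3h2a (chromosome 11): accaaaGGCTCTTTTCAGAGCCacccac
Hist1h2bg (chromosome 13): cccaaaGGCTCTTTTCAGAGCCacccat
Hist2h3c2 (chromosome 3): cacaaaGGCTCTTTTCAGAGCCaccaca
Hist1h4h (chromosome 13): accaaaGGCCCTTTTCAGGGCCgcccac
Hist1h4i (chromosome 13): cttaaaGGCCCTTTTTAGGGCCaccaca

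The form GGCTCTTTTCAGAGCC was in 26 of the 46 members, and the form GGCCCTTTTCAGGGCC was in 7, all of them H4 genes. Of the 21 protein-coding members with no match, 15 have models that end within 5 bases of the stop codon and so could not hold it. The other 6 are Hist1h1a, Hist1h2bc, Hist1h2bq, Hist1h2br, Hist2h2be and Hist2h3b. The models of Hist2h3b and Hist1h1a run only 40 and 51 bases past the coding part, stop codon included, and leave little room for it. Hist1h2bc, the member with the highest level, is annotated with 2 exons and 745 bases past its coding part, stop codon included. In Hist1h1c the annotated transcript runs on for 840 bases past the stem-loop, and in Hist3h2a for 1643.

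Promoters of 61 members were found in the RefSeq promoter table (GRCm38.p6), each covering 250 bases before to 50 after the gene start. On either strand, ATTTGCAT, the octamer known from H2A and H2B gene promoters, was in 7 of 17 H2A and 7 of 16 H2B promoters and in none of the H1, H3 or H4 promoters, against 1.74% of all 32851 promoters. CCAAT was in 85.2% of the member promoters (3 of 12 among H4) and in 37.4% of all. TATAAA was in 57.4% and 13.6%, and TATATA, which can overlap TATAAA, in 27.9% and 5.67%. The 150 bases before the start are shown for Hist1h2bg, an H2B gene with the octamer, and Hist1h1c, the H1 gene with the highest level. Each match is in capitals. Hist1h2bg (chr13:23571250-23571399, plus strand) has CCAAT 150 bases, ATTTGCAT 59 bases and TATAAA 43 bases before the start, and Hist1h1c (chr13:23738657-23738806, plus strand) has CCAAT 54 bases before it and 2 overlapping TATATA matches. These matches describe letters and not bound sites.
Hist1h2bg: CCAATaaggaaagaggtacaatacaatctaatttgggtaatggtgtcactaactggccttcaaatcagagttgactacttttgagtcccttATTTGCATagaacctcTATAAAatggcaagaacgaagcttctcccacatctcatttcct
Hist1h1c: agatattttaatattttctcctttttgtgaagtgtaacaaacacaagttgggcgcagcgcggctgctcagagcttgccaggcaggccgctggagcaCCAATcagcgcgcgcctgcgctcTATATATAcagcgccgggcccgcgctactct

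Levels are FPKM, fragments per kilobase of transcript scaled to the mapped total of the sample, as the authors deposited them, so genes can be compared per length. The depth was estimated roughly, from the commonest smallest step of low genes, at 15900000 to 26400000 reads per sample, which would make 1 read in 500 bases worth 0.0757 to 0.125 FPKM. Of the 944 member values above 0, 162 (17.2%) were below this estimated worth of 1 read at the annotated length. Only 21.2 to 23.7% of low values lay within 2% of whole multiples of the step. The estimate is therefore unchecked and cannot settle whether these values are whole reads. Samples of a group correlated at 0.965 to 0.987. Alb, the hepatocyte product albumin, was at 21500 to 55800 FPKM over the samples, and all 10 hepatocyte markers were detected. Members also resemble each other: in 32 of the 69, fewer than 50% of the 50-base stretches of the transcript were found in no other member, so the split of reads among them is uncertain. Hist1h2bc had 70.6% such stretches, Hist1h1c 91.5% and Hist3h2a 98%, against 10.8% for Hist2h2aa1 and 36.5% for Hist2h3c2. Hist1h2bg had 50.3%, and 45% of its stretches are also in Hist1h2bc, so the values of these 2 may not be independent.

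Summed FPKM was concentrated in a few members. Whether poly(A) selection was used is not given in the sources used here, and the part of library type in this order was not tested. Hist1h2bc, an H2B gene, had a mean of 88.7 FPKM over the 19 samples and made up 46.5% of the summed histone FPKM, and Hist1h1c, an H1 gene, had 49.9 FPKM and 26.1%. Of the 69 members, 12 had a mean of at least 1 FPKM, 33 lay from 0.1 to 1 and 24 below 0.1, and Hist1h2aa and Hist2h2aa2 were listed at 0 in every sample. The highest of the 4 group means was in CDAHFD sham for 54 members, in CDAHFD RIC for 9, in NC RIC for 3 and in NC sham for 1. The same share over all genes was not computed, and members near 0 FPKM are included, so these counts only describe the members. All members together summed to 131 ± 8.85 FPKM in NC sham (SD, n = 5), 158 ± 39.8 in NC RIC (n = 5), 284 ± 12.4 in CDAHFD sham (n = 5) and 189 ± 5.14 in CDAHFD RIC (n = 4). The 57 members with a mean below 1 summed to 5.49 ± 1.79, 5.58 ± 1.27, 19.5 ± 1.13 and 8.37 ± 0.598 FPKM in the same order.

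**Figure D1:**
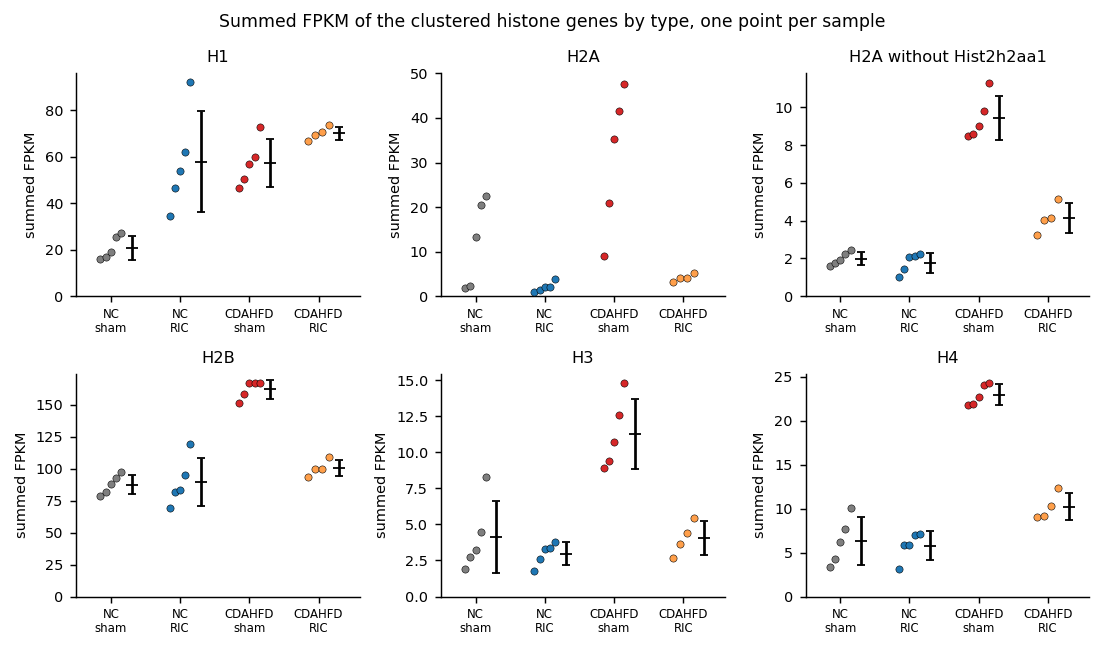
Summed FPKM of all members of a histone type in each sample (points, in rising order within a group) by group, with the mean and SD beside them except for the H2A sum, where Hist2h2aa1 is listed at 0 in 11 of 19 samples. H2B, H3, H4 and H2A without Hist2h2aa1 are highest in all 5 CDAHFD sham samples, whereas H1 is lowest in the 5 NC sham samples.

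The linker histone H1 was lowest in NC sham. The sum of the 6 H1 members was 20.9 ± 5.15 FPKM in NC sham, 57.7 ± 21.7 in NC RIC, 57.2 ± 10.2 among CDAHFD sham samples and 70.1 ± 2.82 in CDAHFD RIC, nearly all of it Hist1h1c. Hist1h1c read 15.6, 18.6, 16.7, 25.2 and 27.2 FPKM in the NC sham samples and 33.8, 90.9, 53.6, 46.4 and 61.4 in the NC RIC samples. In the CDAHFD sham samples it read 49.4, 71.5, 55.5, 45.5 and 58.6 FPKM, and in the CDAHFD RIC samples 65.7, 70.1, 68.7 and 73.1. The NC sham samples lay below all others, and the other 3 groups overlapped.

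The core types were highest in CDAHFD sham. H2B summed to 87.6 ± 7.8 FPKM in NC sham, 89.7 ± 18.8 in NC RIC, 162 ± 7.22 among CDAHFD sham samples and 100 ± 6.39 in CDAHFD RIC. H3 summed to 4.12 ± 2.51, 2.98 ± 0.781, 11.3 ± 2.4 and 4.06 ± 1.17 FPKM, and H4 to 3.32 to 10.1, 3.09 to 7.12, 21.8 to 24.3 and 9 to 12.4 over the samples of the same groups. H2A without Hist2h2aa1 summed to 2 ± 0.362, 1.78 ± 0.524, 9.45 ± 1.17 and 4.14 ± 0.795 FPKM. In each of these 4 sums the CDAHFD sham samples lay above every sample of the other groups.

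The first comparison asks what the diet did in sham-treated mice. By the test described next, members of all 5 types were called higher. Among the called members with a mean of at least 1 FPKM, the rise ran from 1.63-fold in Hist1h2bg to 4.87-fold in Hist1h4i. Hist1h2bf and Hist2h2aa1, at that level but not called, were 1.34-fold and 2.13-fold higher. Differences are of log2(FPKM + 1), which understates the change of low genes, from limma fitted over all 10577 named rows with a mean of at least 1 FPKM, with Benjamini-Hochberg adjustment over those rows and calls at an adjusted p under 0.05. Of the 12 members at that level, 10 rose in CDAHFD sham and none fell, against 63.9% of all tested genes that rose and 10.3% that fell. A gene can pass the level through the group where it is high, so this count and those below it are no support for all 69. Hist1h4k reached 1 FPKM only through CDAHFD sham. The median difference was 1.03 over the 12 members and 0.45 over all tested genes, a gap of 0.58. Scaling each sample by its median ratio took the median of all genes to 0, left a gap of 0.66, and called 8 members higher and none lower, while the share of rises among all calls went from 86.1% to 50%.

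In H1, Hist1h1c was 2.72-fold higher in CDAHFD sham than in NC sham (log2 difference 1.41, SE 0.2, adjusted p = 3.83e-06 by limma). In H2A, Hist3h2a read 1.44, 1.09, 1.28, 1.37 and 1.03 FPKM in NC sham, 0.764, 1.28, 1.2, 0.804 and 1.43 in NC RIC, 5.83, 4.78, 5.96, 4.57 and 4.78 among CDAHFD sham samples, and 1.82, 3.2, 1.68 and 3.14 in CDAHFD RIC. The 3 ranges of chow, CDAHFD RIC and CDAHFD sham did not overlap, and the diet difference in sham was 1.46 (SE 0.13, adjusted p = 9.47e-09, limma). Trim17, annotated on the same strand, overlaps Hist3h2a, so reads of the pair may be mixed.

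Hist2h2aa1, the other H2A gene with a mean above 1, was listed at 0 in 11 of 19 samples. It read 0, 18.1, 11.6, 0 and 20.8 FPKM in NC sham, 0, 0, 1.7, 0 and 0 in NC RIC, 36.4, 0, 31.7, 12.5 and 26.6 among CDAHFD sham samples, and 0 in all 4 CDAHFD RIC samples. The values jump between 0 and over 10 within a group, and 89.2% of its 50-base stretches are also in Hist2h2aa2, which is listed at 0 throughout. Gm20634, annotated over it on the same strand, was also at 0 in 11 samples, so its zeros may be failed estimates and its calls are of little weight. Its diet difference in sham was not called (adjusted p = 0.22, limma), but was without CDAHFD sham sample 2, which is at 0.

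In H2B, Hist1h2bc read 77.7, 59.7, 65.9, 72.8 and 70.7 FPKM in NC sham, 67.5, 96.3, 66.4, 56.8 and 75.2 in NC RIC, 136, 121, 132, 135 and 130 among CDAHFD sham samples, and 88, 75.2, 80.3 and 78.7 in CDAHFD RIC. All 5 CDAHFD sham samples stood above all others. Hist1h2bc rose by 0.91 with the diet in sham (SE 0.11, adjusted p = 4.27e-07, limma), a 1.88-fold change. Hist1h2bg rose 1.63-fold, from 13.4 ± 0.845 to 22 ± 2.67 FPKM, but median-ratio scaling and quantile normalization left it uncalled (adjusted p from 1.3e-05 to 0.433 over the alternatives). Hist2h2be rose 3.04-fold, from 0.618 ± 0.314 to 1.88 ± 0.358 FPKM (adjusted p = 9.1e-06, limma). Hist1h2bf, at 1.71 ± 0.535 and 2.3 ± 0.634 FPKM, was not called (adjusted p = 0.0826), but was without NC sham sample 2, NC sham sample 4 or CDAHFD sham sample 2.

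In H3, Hist2h3c2 read 2.12, 1.61, 0.749, 1.45 and 1.38 FPKM in NC sham, 0.901, 1.21, 0.863, 1.02 and 0.991 in NC RIC, 4.58, 2.52, 3.49, 3.25 and 3.49 among CDAHFD sham samples, and 0.961, 1.07, 1.33 and 0.869 in CDAHFD RIC. Again the CDAHFD sham samples stood above all others, by 2.37-fold over NC sham (adjusted p = 8.07e-06, limma). Its near copy Hist2h3c1, which holds 63.5% of its 50-base stretches, ranged from 0.86 to 5.27 FPKM in NC sham and from 2.03 to 8.65 among CDAHFD sham samples, and rose by 0.97 (SE 0.34, adjusted p = 0.0153). That call was lost under median-ratio scaling, under quantile normalization and without CDAHFD sham sample 4, with adjusted p from 0.00101 to 0.276 over the alternatives. Gm20634 is annotated over Hist2h3c1 too, on the same strand. Hist2h3c1 read 5.27 and 1.8 FPKM in NC sham samples 1 and 4 and 7.08 and 8.65 in CDAHFD sham samples 2 and 4. In these samples Gm20634 was at most 0.0186 FPKM. In the other samples of the 2 groups Hist2h3c1 was at most 1.27 and 3.54 FPKM, and Gm20634 at least 1.06. Reads of the pair may be mixed, so this call and the H3 sum, which includes Hist2h3c1, are less certain.

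In H4, Hist1h4h read 5.79, 3.49, 3.74, 1.28 and 2.45 FPKM in NC sham, 3.17, 1.48, 1.19, 3.33 and 2.3 in NC RIC, 11.3, 10.1, 9.26, 10.9 and 8.76 among CDAHFD sham samples, and 7.42, 6.52, 4.49 and 4.24 in CDAHFD RIC. Hist1h4i read 1.68, 0.466, 1.07, 0.899 and 0.702 FPKM in NC sham, 0.969, 2.21, 0.862, 1.33 and 0.486 in NC RIC, 3.83, 6.06, 4.05, 4.26 and 5.26 among CDAHFD sham samples, and 1.94, 1.64, 1.48 and 2.29 in CDAHFD RIC. Both were above every other sample in CDAHFD sham, with diet differences of 1.43 (SE 0.24, adjusted p = 2.52e-05) and 1.55 (SE 0.18, adjusted p = 3.29e-07) by limma. Hist1h4k rose from 0.494 ± 0.359 to 2.26 ± 1.17 FPKM, with overlapping groups (adjusted p = 0.000824, limma), and quantile normalization left it uncalled (adjusted p from 0.000237 to 0.0855 over the alternatives).

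**Figure D2:**
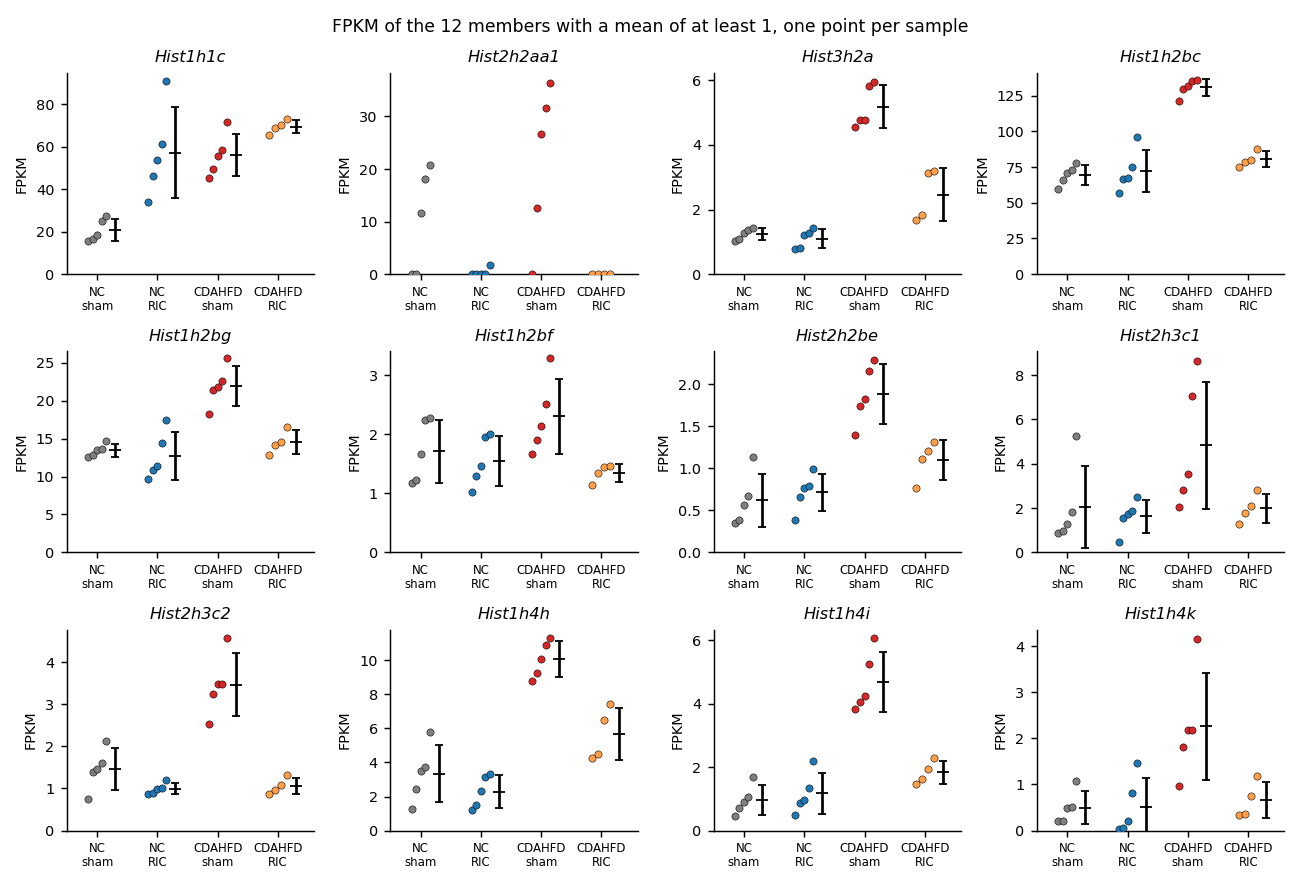
FPKM of the 12 members with a mean of at least 1 in each of 19 samples (points) by group, with the mean and SD beside them except for Hist2h2aa1, and bars cut at 0. CDAHFD sham is highest in most panels, while in Hist1h1c the NC sham samples, at 15.6 to 27.2 FPKM, lie below all others.

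With the level lowered to a mean of 0.1 FPKM, 36 of 45 members rose and none fell, against 59.1% of 17311 genes that rose and 7.93% that fell. Beside the 10 above these were Hist1h1d in H1; Hist1h2ac, Hist1h2ad, Hist1h2ae, Hist1h2af, Hist1h2ag and Hist1h2ah in H2A; and Hist1h2bh, Hist1h2bj, Hist1h2bk, Hist1h2bl, Hist1h2bn, Hist1h2bq and Hist1h2br in H2B. In H3 they were Hist1h3b, Hist1h3c, Hist1h3d, Hist1h3g and Hist1h3i, and in H4 Hist1h4a, Hist1h4b, Hist1h4c, Hist1h4d, Hist1h4j, Hist1h4m and Hist1h4n. With every gene above 0 somewhere, 40 of 67 members rose and none fell, against 37.1% and 4.45% of 29754 genes, adding Hist1h1t, Hist1h2ai, Hist1h2ao, Hist1h2bp and Hist1h3h and losing Hist1h4b. Hist1h2af, Hist1h2ah, Hist1h3b, Hist1h4d and Hist2h3b reached 0.1 FPKM only through CDAHFD sham, the other 3 group means being lower, so these counts describe the members that passed and support no direction. Over all 69 members, 24 had CDAHFD sham samples all above the NC sham samples, against 29.6% of the 29754 genes, so the share of members whose groups separate was near the background.

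Hist1h4m, the highest member below 1 FPKM, was at 0.507 ± 0.432 FPKM in NC sham, 0.449 ± 0.328 in NC RIC, 1.99 ± 0.678 among CDAHFD sham samples and 0.228 ± 0.113 in CDAHFD RIC, and 89.8% of its 50-base stretches are shared with Hist1h4n. Hist1h2ae, the highest such H2A member, was at 0.287 ± 0.164, 0.14 ± 0.182, 1.1 ± 0.529 and 0.434 ± 0.344 FPKM in the same order. Hist1h2bk, the highest such H2B member, was at 0.43 ± 0.145, 0.426 ± 0.222, 0.833 ± 0.297 and 0.607 ± 0.303, and Hist1h3i, in H3, at 0.172 ± 0.203, 0.0612 ± 0.137, 0.741 ± 0.472 and 0.141 ± 0.099. Next in level, Hist1h4n was at 0.237 ± 0.276, 0.298 ± 0.367, 1.24 ± 0.626 and 0.174 ± 0.104 FPKM and Hist1h4c at 0.348 ± 0.156, 0.291 ± 0.135, 0.683 ± 0.271 and 0.47 ± 0.146. In all of these the mean was highest in CDAHFD sham.

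Hist1h2bn was at 0.433 ± 0.167 FPKM in NC sham, 0.443 ± 0.132 in NC RIC, 0.782 ± 0.153 among CDAHFD sham samples and 0.512 ± 0.0834 in CDAHFD RIC, and Hist1h2bl at 0.445 ± 0.166, 0.404 ± 0.114, 0.731 ± 0.162 and 0.449 ± 0.0352. The H2A genes Hist1h2ac and Hist1h2ad were at 0.0392 ± 0.035 and 0.0467 ± 0.0866 FPKM in NC sham, at 0.633 ± 0.179 and 0.709 ± 0.284 in CDAHFD sham, then 0.288 ± 0.145 and 0.198 ± 0.166 in CDAHFD RIC. Hist1h3c was at 0.387 ± 0.223 in CDAHFD sham and 0.306 ± 0.243 in CDAHFD RIC, and Hist1h1d, an H1 gene, at 0.0175 ± 0.0133, 0.089 ± 0.102, 0.392 ± 0.135 and 0.125 ± 0.0162 in the order of the groups. Among the other H1 genes Hist1h1e was at 0.185 ± 0.153 FPKM in NC sham and 0.275 ± 0.12 in CDAHFD sham (adjusted p = 0.32 at the lower level, limma), and Hist1h1b was at 0 in all 5 NC sham samples and at most 0.601 elsewhere. Hist2h3b, an H3 gene, was at 0 in 11 of 19 samples and reached 0.783 FPKM. The 24 members below 0.1 FPKM reached at most 0.474 FPKM in any sample (Hist1h4f).

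**Figure D3:**
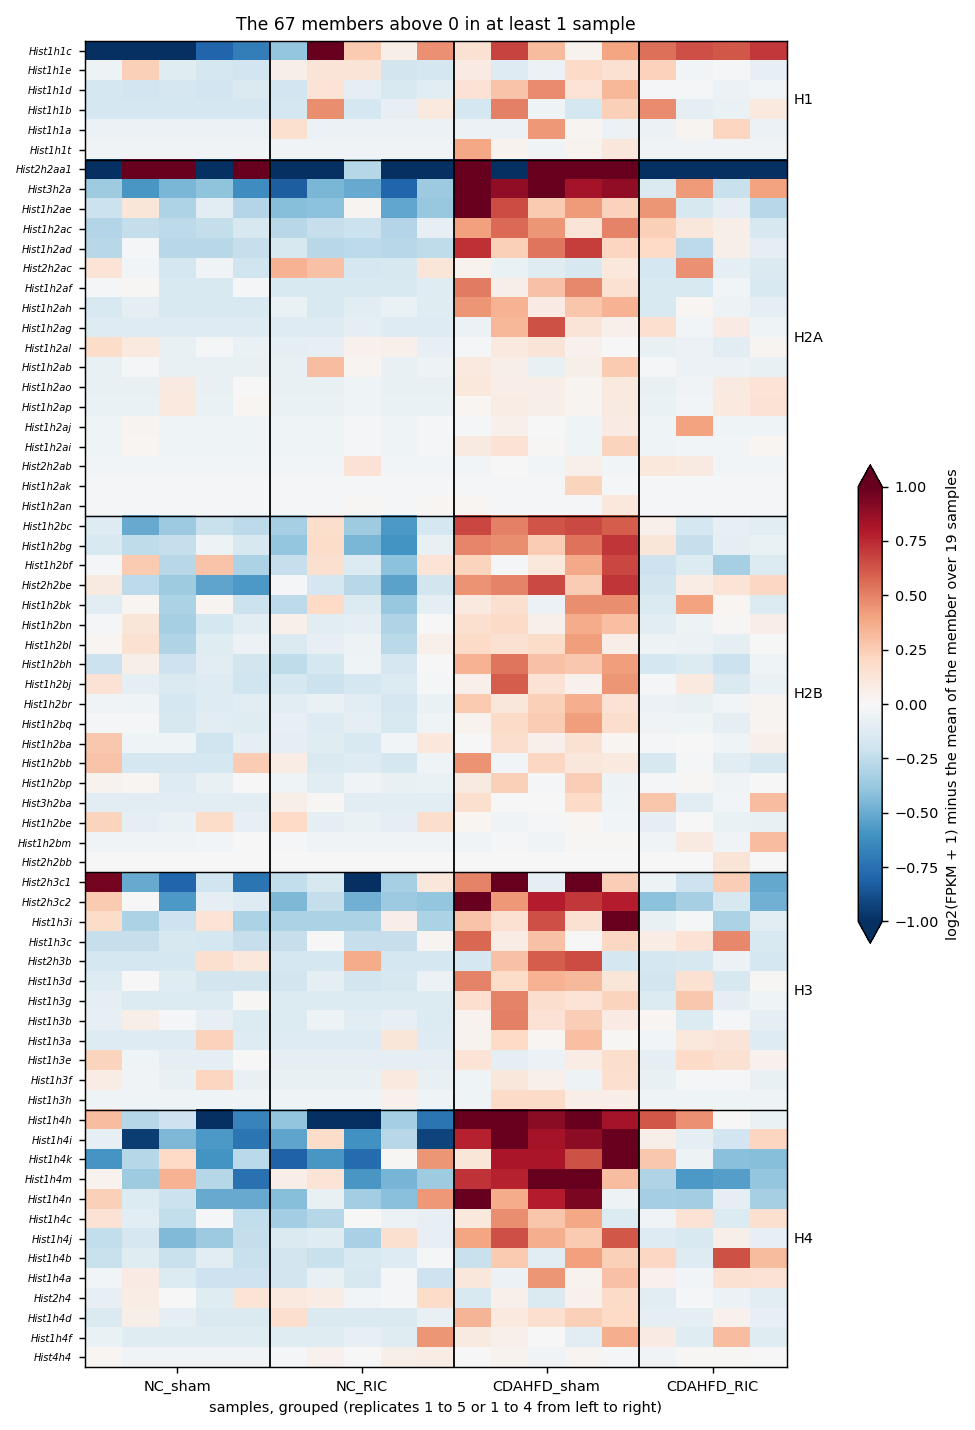
Each row is 1 of the 67 members above 0 in at least 1 sample and each column 1 of 19 samples, and colour gives log2(FPKM + 1) minus the mean of the member over all samples, cut at -1 and 1. Red is concentrated in the CDAHFD sham columns across H2A, H2B, H3 and H4, while the Hist1h1c row is blue only in NC sham and in 1 NC RIC sample.

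The second comparison asks what conditioning did on CDAHFD. Members of H2A, H2B, H3 and H4 fell, while Hist1h1c, which makes up most of the H1 level, was not called. None of the 12 members rose and 10 fell in CDAHFD RIC against CDAHFD sham, against 8.72% of tested genes that rose and 18.6% that fell. The median difference was -0.8 over the 12 members and -0.08 over all tested genes, a gap of -0.72 that was -0.69 under median-ratio scaling, while the share of rises among all calls went from 31.9% to 55.8% under that scaling. With the level at 0.1 FPKM, 28 of 45 members fell and none rose (14.3% and 6.41% of all genes), and with every gene above 0, 25 of 67 fell and none rose (7.27% and 3.38%). Members that passed a level through CDAHFD sham, Hist1h4k at 1 FPKM and the 5 named above at 0.1, were selected by the group they are compared with, so these counts too are a description. Over all 69 members, 22 had CDAHFD RIC samples all below the CDAHFD sham samples, against 6.36% of 29754 genes, and none had them all above, against 2.68%. The CDAHFD sham samples enter this comparison and the first one, so the opposite directions in the same members are not independent of each other.

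By type, the 22 were 1 H1 (Hist1h1d), 4 H2A, 8 H2B, 3 H3 and 6 H4 members. Among the 12 above 1 FPKM, Hist2h3c2 fell by 1.11 on the log2 scale (SE 0.14, adjusted p = 4.11e-05, limma), to 0.305 of its sham level, and Hist1h4i fell by 1 (SE 0.19, adjusted p = 0.00141). Hist3h2a fell by 0.86 (SE 0.14, adjusted p = 0.000383), Hist1h2bc by 0.69 (SE 0.11, adjusted p = 0.000469) and Hist1h2bg by 0.56 (SE 0.13, adjusted p = 0.00512). These 5 calls held under all 31 alternatives, as did that of Hist2h2aa1, which is at 0 in all CDAHFD RIC samples and has no usable fold. The calls of Hist1h4h, Hist1h2bf, Hist2h2be and Hist1h4k (adjusted p from 0.0171 to 0.034) were less firm, being lost in 13, 8, 4 and 3 of the 31, with adjusted p up to 0.0952, 0.0802, 0.0706 and 0.0806. Other scalings and pseudocounts were among these, and single samples: that of Hist1h4h was lost without CDAHFD sham sample 1, 3 or 4 or CDAHFD RIC sample 3 or 4, and that of Hist1h2bf without CDAHFD sham sample 4 or 5 or CDAHFD RIC sample 1 or 3. That of Hist2h2be was lost without CDAHFD RIC sample 1, and that of Hist1h4k without CDAHFD RIC sample 3.

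Hist1h1c and Hist2h3c1 were the 2 members not called. Hist1h1c was at 56.1 ± 10 FPKM in CDAHFD sham and 69.4 ± 3.08 in CDAHFD RIC, a difference of 0.32 with a 95% interval from -0.14 to 0.77 (adjusted p = 0.276, limma). Hist2h3c1 differed by -0.84, with an interval from -1.61 to -0.08 and an adjusted p of 0.0869, and was called without NC sham sample 1 or CDAHFD sham sample 3. Beside the 10 members above, those that fell at the 0.1 level were Hist1h1d, Hist1h2ac, Hist1h2ad, Hist1h2ae, Hist1h2af, Hist1h2ah, Hist1h2bh, Hist1h2bl, Hist1h2bq, Hist1h2br, Hist1h3b, Hist1h3d, Hist1h3g, Hist1h3i, Hist1h4d, Hist1h4j, Hist1h4m and Hist1h4n, and Hist1h4m, with a log2 difference of -1.26 (SE 0.2), moved the most among these named members. When every gene above 0 was tested Hist1h3h was called in addition, and the calls of Hist1h2ae, Hist1h2bf, Hist1h2bl and Hist1h4h were lost.

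Hist1h2bg was at 22 ± 2.67 FPKM in CDAHFD sham and at 12.8 to 16.6 in the CDAHFD RIC samples, beside 13.4 ± 0.845 in NC sham. Hist2h2be went from 1.88 ± 0.358 to 1.1 ± 0.238 FPKM and Hist1h2bf from 2.3 ± 0.634 to 1.35 ± 0.148. Hist1h4k went from 2.26 ± 1.17 to 0.661 ± 0.398 FPKM, with overlapping groups. Hist1h4h and Hist3h2a, at 5.67 ± 1.55 and 2.46 ± 0.82 FPKM in CDAHFD RIC, stayed above the NC RIC samples.

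RNAs that carry no poly(A) tail are given beside this result, from a list chosen after the data were seen. The summed FPKM of Rn7s1, Rn7s2, Rn7sk, Rmrp and Rpph1 was 15.1 to 45 among CDAHFD sham samples. In CDAHFD RIC it was 11.8 to 14.1, with no overlap, and 6.36% of 29754 genes were likewise lower without overlap. Singly, Rn7s1, Rn7sk and Rmrp overlapped between these groups and Rn7s2 met at 6.11 FPKM, while Rpph1 was apart. The sum was 17 to 27.8 in NC sham, and 19.5 to 21.8 in NC RIC apart from sample 1, at 176. That NC RIC sample had 26.4 FPKM summed over the 66 members other than Hist1h2bc, Hist1h1c and Hist2h2aa1, within the 22.5 to 35 of its group. CDAHFD sham sample 5, the lowest of its group in these RNAs at 15.1, had 78.6 FPKM over those members, within the 68.5 to 81.1 of its group. Whether the labels' library kit was used with poly(A) selection is not given in the sources used here, and the part of library type in the histone result was not tested.

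**Figure D4:**
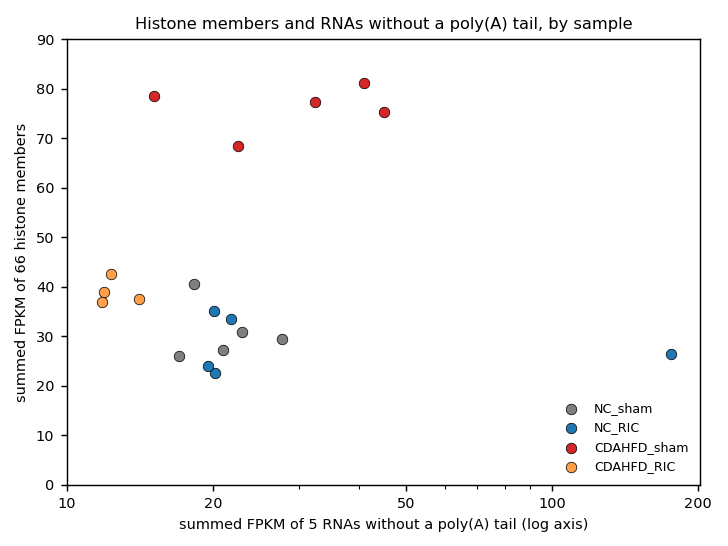
Each point is 1 of 19 samples: the horizontal log axis is the summed FPKM of 5 RNAs without a poly(A) tail, and the vertical axis the summed FPKM of 66 histone members (all but Hist1h2bc, Hist1h1c and Hist2h2aa1), coloured by group. CDAHFD RIC lies at the low end of the horizontal axis and below CDAHFD sham, and the NC RIC sample at 176 on the horizontal axis lies among the chow samples on the vertical.

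Lists of other genes are also given beside this result, those of mitosis first. The counts of the lists below are read against the 63.9% of tested genes that rose with the diet in sham, and the 8.72% that rose and 18.6% that fell with conditioning on CDAHFD. Of 20 mitosis genes 6 were at or above 1 FPKM, and all 6 rose with the diet in sham and fell in CDAHFD RIC against CDAHFD sham, Mki67, a marker of cycling cells, by 0.88 on the log2 scale (adjusted p = 0.000304, limma). The 20 genes summed to 1.23 to 2.32 FPKM over the chow samples, 25.3 to 76.7 among CDAHFD sham samples and 18 to 27 in CDAHFD RIC. With chow sums this low, most of the 6 can have reached 1 FPKM only through the CDAHFD groups, so their count supports no direction. Of 16 tested genes of S phase and replication, 13 rose with the diet in sham, but with conditioning on CDAHFD none rose and only Fen1, a flap endonuclease, fell, by 0.65 (SE 0.14, adjusted p = 0.00308). Pcna, the sliding clamp of DNA replication, differed by -0.09 (SE 0.12, adjusted p = 0.601). Of 13 macrophage markers 12 rose with the diet in sham, and with conditioning on CDAHFD 3 rose and none fell. Of 7 tested stellate cell and fibroblast markers all rose with the diet in sham and 3 fell with conditioning on CDAHFD, and the list summed to 34.3 to 84.8 FPKM in CDAHFD sham and 26.3 to 53.2 in CDAHFD RIC. In 3 other cell types 1 tested marker also fell with conditioning on CDAHFD. Pf4, the only tested marker of megakaryocytes and platelets, fell by 0.86 (adjusted p = 0.00596, limma). S100a8, 1 of 3 tested neutrophil markers, fell by 0.66 (adjusted p = 0.0272, limma), and the other 2 were not called. Jchain, the only tested marker of B and plasma cells, fell by 0.61 (adjusted p = 0.0315, limma). The lists of these 3 types summed to 6.05 to 9.23, 13.2 to 35.3 and 4.77 to 9.34 FPKM over the CDAHFD sham samples. Over the CDAHFD RIC samples they summed to 2.71 to 6.11, 13.6 to 18.4 and 3.65 to 6.5. None of the tested T cell (2), endothelial (6) and erythroid (5) markers was called with conditioning on CDAHFD. All 3 tested cholangiocyte markers rose with the diet in sham, the list summing to at most 35.1 FPKM in NC sham and to 143 to 479 in CDAHFD sham, and none of them was called with conditioning on CDAHFD. Of 10 hepatocyte markers 8 fell with the diet in sham, and with conditioning on CDAHFD 3 rose and 1 fell. The part of cell number and division in the histone values was not tested.

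Histone genes outside the clusters are mostly expressed independently of replication. Against the same background, of 9 tested of 15, 8 rose with the diet in sham, among them H2afx, a variant phosphorylated at DNA breaks, by 1.32 (adjusted p = 8.88e-09, limma). With conditioning on CDAHFD, H2afx fell by 1.32 (SE 0.12, adjusted p = 4.1e-06), from 8.22 ± 1.17 to 2.73 ± 0.768 FPKM, and its RNA is known to exist with a stem-loop as well as with a poly(A) tail. H2afj and H2afy also fell, by 0.96 (adjusted p = 0.00548) and 0.27 (adjusted p = 0.035), while H1f0, the linker histone of non-dividing cells, rose by 0.37 (adjusted p = 0.037). Of 15 tested genes of histone mRNA processing, 11 rose with the diet in sham, near the 63.9% of all tested genes, and 4 rose and 2 fell with conditioning on CDAHFD. Slbp, which binds the stem-loop, differed by -0.33 in the second comparison (SE 0.16, adjusted p = 0.123). Of 14 tested chaperone and assembly genes, 12 rose with the diet in sham, and with conditioning on CDAHFD Atrx rose by 0.32 (adjusted p = 0.0257) and Nasp, a histone chaperone, fell by 0.25 (adjusted p = 0.0218).

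The third comparison asks what the diet did in conditioned mice. Of the 12 members, 2 rose and none fell, against 63.6% of all tested genes that rose and 6.68% that fell. They were Hist1h4h, by 1.04 (SE 0.25, adjusted p = 0.0013, limma), and Hist3h2a, by 0.7 (SE 0.14, adjusted p = 0.000182). The first call was lost under median-ratio scaling and both under quantile normalization, with adjusted p up to 0.0913 and 0.168. Without NC RIC sample 2, 6 members were called higher, and without NC sham sample 1, 4. The median difference was 0.21 over the members and 0.42 over all genes, a gap of -0.21 that was -0.15 under median-ratio scaling, under which 1 member was called higher and 3 lower (Hist1h2bc, Hist1h2bg and Hist1h2bf). With a common sum 7 were called higher and none lower. Hist1h2bc went from 0.17 (adjusted p = 0.19, limma) to 0.37 with a common sum (adjusted p = 0.00477) and -0.39 with median-ratio scaling (adjusted p = 0.00525), and Hist1h2bg from 0.2 to 0.39 and -0.33, so neither has a direction here. Hist2h3c2 went from 0.04 to -0.51 under quantile normalization. The log2 ratios of the H1, H2B and H3 sums were 0.28, 0.16 and 0.45. They turned to -0.28, -0.39 and -0.12 under median-ratio scaling, so their direction depends on the scaling. The share of rises among all calls went from 90.5% to 50.7% under median-ratio scaling. At the 0.1 level 6 of 45 members rose and none fell (56.1% and 5.05% of all genes), and with every gene above 0, 4 of 67 rose (34%). The 6 had Hist1h2ac, Hist1h3c, Hist1h4a and Hist1h4b in addition to the 2 above. The CDAHFD RIC samples lay all above the NC RIC samples in 4 of 69 members, Hist1h2ag, Hist3h2a, Hist1h2bp and Hist1h4h, against 29.2% of genes.

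The fourth comparison asks what conditioning did on chow. Hist1h1c alone of the 12 members was called, 2.77-fold higher in NC RIC (difference 1.38, SE 0.2, adjusted p = 0.00527, limma), and no member fell, against 0.321% of tested genes that rose and 0.86% that fell. The call held under all 31 alternatives, with adjusted p from 0.00133 to 0.0379 and differences from 1.2 to 1.55. The NC RIC samples read 33.8 to 90.9 FPKM and the NC sham samples 15.6 to 27.2, and no other member of 69 had separate groups, against 0.598% of 29754 genes. It was also the 1 member called at the 0.1 level (0.11% of genes rose) and with every gene above 0 (0.0504%). Hist1h2bc differed by 0.05, with an interval from -0.19 to 0.28, and the median of the 12 members was -0.09 against -0.06 over all genes. Among histone genes outside the clusters, H3f3b, an H3 gene expressed without replication, rose by 0.43 (SE 0.09, adjusted p = 0.04), and H1f0 differed by 0.48 (SE 0.12, adjusted p = 0.0601). Only 125 genes were called in all, and the share of rises among them went from 27.2% to 62.2% under median-ratio scaling.

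**Figure D5:**
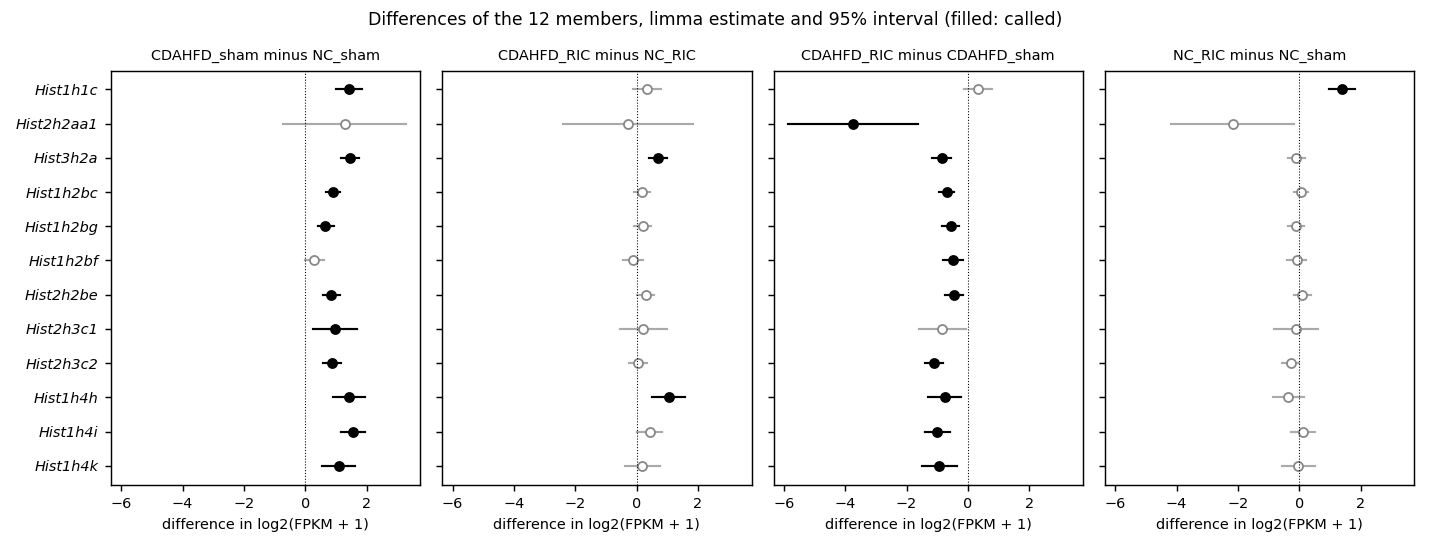
Differences in log2(FPKM + 1) of the 12 members with a mean of at least 1 in 4 comparisons, with 95% intervals from limma (filled points: adjusted p under 0.05). Of the 12 members, 10 are filled to the right of 0 for diet in sham, 10 to the left for conditioning on CDAHFD, and Hist1h1c alone for conditioning on chow.

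The effect of conditioning was then compared between diets as the difference of the differences. Of the 12 members, 5 were lower (the effect on CDAHFD below that on chow) and none higher, against 3.13% and 3.59% of tested genes. These were Hist1h4i at -1.12 (SE 0.26, adjusted p = 0.017, limma), Hist1h1c at -1.07 (SE 0.29, adjusted p = 0.0354), Hist2h3c2 at -0.83 (SE 0.19, adjusted p = 0.0155), Hist3h2a at -0.76 (SE 0.19, adjusted p = 0.0229) and Hist1h2bc at -0.74 (SE 0.16, adjusted p = 0.0105). In Hist1h1c the difference came with a rise on chow and an uncalled difference of 0.32 on CDAHFD, and the call was lost in 14 of 30 alternatives (adjusted p from 0.0127 to 0.0896), among them leaving out any of NC sham samples 1 to 3, NC RIC samples 2, 3 and 5, CDAHFD sham samples 3 and 5 and CDAHFD RIC samples 1 to 3. In the other 4 it came with a fall on CDAHFD and an uncalled difference on chow. The median was -0.75 over the 12 members and -0.03 over all genes. Without CDAHFD RIC sample 3, 3 of the 12 were called. The share of higher values among all calls went from 53.4% to 81.1% with a common sum. At the 0.1 level 10 of 45 members were lower and none higher (2.18% and 2.09% of all genes), and with every gene above 0, 8 of 67 were lower (0.82%). The 10 had Hist1h1d, Hist1h2ah, Hist1h2bh, Hist1h4j and Hist1h4m in addition to the 5 above. Of the 45, 5 reached 0.1 FPKM only through CDAHFD sham, Hist1h2ah among them. That group enters this difference, so these counts too are a description.

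The members lie in few places. Chromosome 13 holds 56 of the 69, chromosome 3 holds 10, chromosome 11 holds 2 and chromosome 6 holds 1. On chromosome 13, 24 lie from 21715763 to 22043676 and 31 from 23531050 to 23934851 (GRCm38). Hist1h2bc (chr13:23684199-23692908, plus strand), Hist1h1c (chr13:23738808-23740367, plus strand) and Hist1h4h (chr13:23531050-23531519, plus strand) lie in the second of these stretches and Hist1h4i (chr13:22040636-22041362, minus strand) in the first. Hist2h3c2 (chr3:96238108-96239127, minus strand) and Hist3h2a (chr11:58954685-58956830, plus strand) lie elsewhere, so members that rose on CDAHFD in sham were on 3 chromosomes. By transcript model, the 23 members with a stem-loop followed by at most 100 bases summed to 5.26 to 25.8 FPKM over the NC sham samples, 5.32 to 7.41 in NC RIC, 19.8 to 58.1 among CDAHFD sham samples and 8.22 to 11.6 in CDAHFD RIC, Hist2h2aa1 included. The 23 with more than 100 bases after it, Hist1h1c among them, summed to 41.5 ± 5.27, 76.6 ± 25.2, 103 ± 11 and 94.2 ± 2.53 FPKM. The 6 longer models without a match, Hist1h2bc among them, summed to 70.3 ± 7.02, 73.5 ± 14.9, 134 ± 6.15 and 82.1 ± 5.18 FPKM, and the 15 that end at the stop codon to 1.79 ± 0.375, 1.81 ± 0.788, 5.99 ± 1.59 and 2.34 ± 0.533. In 26 members the annotation overlaps another gene, and counting by strand is not given in the sources used here.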

How the data were processed

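Per the labels' protocols, Trizol gave the total RNA and a VAHTS Universal kit the RNA-seq libraries. The submitters' processing notes name FastQC 0.11.9, Trimmomatic 0.38, HISAT2 2.2.1, HTSeq 0.13.5, R 3.4.1, DESeq2 1.18.1 and the mm10 build, without role or order. The authors deposited FPKM for 55335 rows, of which 3225 have no gene name and were left out. Read counts were not used here, since only 21.2 to 23.7% of low values lay within 2% of whole multiples, so depth is an estimate.

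Log2(FPKM + 1) of the 10577 named rows with a mean of at least 1 over all 19 samples was fitted in limma 3.58.1 (R 4.3.3) with 1 mean per group, a mean trend and 15 residual degrees of freedom. Two-sided p-values were adjusted by Benjamini and Hochberg. Intervals use those degrees of freedom. The 2 lower levels, other pseudocounts, scalings and fits, and leaving out samples were alternatives. Sums over types have no test. The method was checked on simulated data.

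Every member with a mean of at least 1 is named, and below that the 3 highest of each type and those called at a lower level. The members and lists were chosen with earlier results of these data known.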

Additional observations from a re-analysis of the deposited data

Results flagged for a closer look

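The effect of conditioning differed between diets in 5 members by the limma test of the difference of differences, with values of -0.74 for Hist1h2bc, -1.07 for Hist1h1c, -1.12 for Hist1h4i, -0.76 for Hist3h2a and -0.83 for Hist2h3c2. Hist1h1c is the member whose difference rests on a rise on chow. The calls of Hist1h1c, Hist3h2a and Hist1h4i were lost in 14, 4 and 1 of 30 alternatives, with adjusted p up to 0.0896, 0.0702 and 0.0544 by limma. Those of Hist1h2bc and Hist2h3c2 held in all 30.

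Among 68 groups checked (12 members and 5 type sums in 4 groups), 2 had a sample far from the rest, where chance flags about 1 in 20. Hist2h3c1 was at 5.27 FPKM in NC sham sample 1, with the other 4 at most 1.8. Gm20634, annotated over Hist2h3c1 on the same strand, was at 0 in that sample. Hist2h2aa1 was at 1.7 FPKM in NC RIC sample 3, with the other 4 listed at 0.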

How the results depend on the processing

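Over single members, comparisons and alternatives, 1763 results kept their side of the threshold, 56 lost a call and 26 gained one. For diet in conditioned mice, 3 members uncalled as reported were called in the opposite direction: Hist1h2bc (-0.39) and Hist1h2bg (-0.33) with median-ratio scaling, both called higher with a common sum, and Hist2h3c2 (-0.51) with quantile normalization. With a mean of at least 0.1 FPKM, members called were 36 higher (diet in sham), 6 higher (diet in conditioned mice), 28 lower (conditioning on CDAHFD) and 10 lower (difference between diets), and with no filter 40, 4, 25 and 8. For diet in conditioned mice, members higher and lower were 7 and 0 with a common sum, 1 and 3 with median-ratio scaling and 0 and 2 with quantile normalization, against 2 and 0. A pseudocount of 0.1 gave 3 members lower in the difference between diets.

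All genes called numbered 12361 with no filter (diet in sham), 1868 with only the groups compared (conditioning on CDAHFD) and 1266 without CDAHFD sham samples 2 and 5 (difference between diets). For conditioning on chow they were 68 at 0.1, 48 with no filter, 59 with quantile normalization, 46 with only the groups compared and 401 with array weights. Under the replicate block they were 79, and members called lower were 9 on CDAHFD and 4 between diets. Samples of the same number in different groups correlated at -0.174 to 0.176 in their deviations (6 of 27 pairs over 0.1). Those of different number correlated at -0.327 to 0.233 (14 of 108 pairs over 0.1). These overlapping ranges cannot settle whether samples of the same number share more than the number.

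Leaving out 1 sample gave 2 to 6 members higher for diet in conditioned mice (4 without NC sham sample 1, 6 without NC RIC sample 2) and 3 to 6 lower between diets (3 without CDAHFD RIC sample 3). All genes ranged from 13 to 184 for conditioning on chow, moved by 13 of 19 samples, and from 438 to 1042 between diets (438 without NC sham sample 2, 469 without CDAHFD sham sample 3).

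Median-ratio scaling moved the log2 ratios of summed FPKM for diet in sham to 0.87 (H1), 0.77 (H2A), 0.31 (H2B), 0.89 (H3) and 1.29 (H4), for diet in conditioned mice to -0.28 (H1), 0.4 (H2A), -0.39 (H2B), -0.12 (H3) and 0.25 (H4), and for conditioning on CDAHFD to -0.59 (H2B), where a common sum gave -0.58. Without Hist2h2aa1, an alternative chosen after seeing the data, the H2A ratio was -1.19 for conditioning on CDAHFD and -0.16 on chow, against -2.9 and -2.51. The causes were not tested, beyond fewer genes or samples in a fit. Members below 1 FPKM rest on few reads, reads of near-identical members were not told apart here, and FPKM without counts gives no counting error.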
